A study of Mus musculus with 8 samples.

Results

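The collagen genes described here are 30 listed members of the collagen family, out of 34614 genes in the mouse gene table used. They were listed by gene symbol, with earlier results of these data known. For each gene, CpG cytosines were taken inside its span and up to 5 kb beyond it, where all 8 libraries had at least 10 reads. That gave 3434 of the 1510385 cytosines shared by all libraries, between 8 for Col3a1 and 280 for Col23a1 per gene. Cytosines within 1 kb of either end of a gene were kept as its ends, the others inside the gene as its interior, and the remainder as its flanks. The libraries are reduced representation bisulfite sequencing of DNA from the dDG DGC layer, dissected from brain; the label is taken to mean dentate granule cells of the dorsal dentate gyrus. There was 1 library per mouse. All 8 mice were male and of the genotype C57 BL/6, and no transgene or deletion is labelled. Cocaine mice (n = 4) were labelled self-administration and cocaine, and saline mice (n = 4) self-administration and saline. The labels used here name no age, dose or number of sessions. The comparison asks whether collagen genes, a main class of extracellular matrix genes, differed in methylation between cocaine and saline mice.

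Collagens are proteins of the extracellular matrix built from 3 chains wound into a triple helix. Fibrillar collagens form fibres, network-forming collagens make up basement membranes, beaded-filament collagens form microfibrils around cells, fibril-associated collagens sit on fibre surfaces, transmembrane collagens are held in the cell membrane, and multiplexins join basement membranes to the surrounding matrix. In brain, most collagen lies in vessel walls and meninges, while neurons make several of the transmembrane and fibril-associated kinds. CpG methylation is usually low at CpG-rich gene starts and high along gene bodies. Bisulfite sequencing does not separate methylcytosine from hydroxymethylcytosine, so a level is the share of reads carrying either.

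Each library listed 1844706 to 2236384 cytosines, with a median coverage from 34 reads in cocaine 3 to 66 in saline 3. Before any comparison, the library labelled saline 1 stood apart. Among cytosines with a pooled level from 20% to 80% and 30 to 40 reads in that library, it gave a value of exactly 0% or 100% in 14.3% of cases, where each of the other 7 did so in 0.368% to 2.87%. Over all shared cytosines cocaine 3 had the lowest mean level, 36.5%, and the other 7 libraries lay between 37.1% and 38.3%. Collagen results at an unadjusted p under 0.05 are therefore given with and without saline 1. Methylation does not report the amount of RNA, so the dissected layer could not be checked by expression of its marker genes.

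Of the 30 genes, 24 have a start in the RefSeq promoter table (GRCm38.p6, the coordinates of mm10), which gave their strand. Their placed 5' end is the edge of the gene span on that side, and a listed start can lie elsewhere. For Col27a1 the edge is base 63214009 and the listed start base 63215412 of chromosome 4. End windows, distances and interiors below are counted from the edges. The starts of Col1a1, Col4a3, Col5a2, Col9a3, Col12a1 and Col26a1 are not placed here. The 24 genes have 27 listed starts, and 12 of the windows of 250 bases before a start (44.4%) held a measured cytosine, against 32.4% of all 32851 such windows. The collagen windows had a median of 10 CpGs, against 6 over all windows. The promoter windows below show 4 genes in which the measured CpGs could be read base by base. They are Col16a1 and Col13a1, with the most measured cytosines, Col1a2, the highest level of the remaining windows with several cytosines and a single gene, and Col27a1, the lowest. Each is printed 5' to 3' on the strand of its gene, with the CpGs measured in all 8 libraries in capitals.
Col16a1, plus strand, chr4:130047590-130047839: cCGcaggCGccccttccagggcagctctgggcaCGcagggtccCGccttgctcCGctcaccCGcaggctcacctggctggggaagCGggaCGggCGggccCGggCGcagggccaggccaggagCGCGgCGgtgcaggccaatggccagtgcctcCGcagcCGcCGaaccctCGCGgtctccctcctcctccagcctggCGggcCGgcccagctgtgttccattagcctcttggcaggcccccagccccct
Col13a1, minus strand, chr10:61979109-61979358: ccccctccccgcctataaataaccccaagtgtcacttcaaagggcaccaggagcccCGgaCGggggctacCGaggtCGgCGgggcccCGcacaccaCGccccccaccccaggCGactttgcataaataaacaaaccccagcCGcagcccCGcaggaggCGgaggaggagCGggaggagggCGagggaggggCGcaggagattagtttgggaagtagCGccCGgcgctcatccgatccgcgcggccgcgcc
Col1a2, plus strand, chr6:4505368-4505617: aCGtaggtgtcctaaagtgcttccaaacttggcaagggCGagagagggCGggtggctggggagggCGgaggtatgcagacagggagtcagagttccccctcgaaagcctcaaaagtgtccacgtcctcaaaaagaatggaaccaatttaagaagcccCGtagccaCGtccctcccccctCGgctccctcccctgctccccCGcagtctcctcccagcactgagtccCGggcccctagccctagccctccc
Col27a1, plus strand, chr4:63215162-63215411: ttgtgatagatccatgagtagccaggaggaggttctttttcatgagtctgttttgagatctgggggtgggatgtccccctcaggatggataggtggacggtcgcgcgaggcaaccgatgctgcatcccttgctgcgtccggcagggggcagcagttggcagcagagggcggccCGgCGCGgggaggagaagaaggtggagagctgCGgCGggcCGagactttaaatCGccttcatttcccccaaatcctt
In the Col16a1 window 26 cytosines at 21 CpGs had a mean of 1.54% ± 1.11 (SD, n = 4) with cocaine and 1.21% ± 0.748 with saline. The 19 cytosines of the Col13a1 window read 0.228% ± 0.241 and 1.00% ± 0.694, and the 9 of the Col1a2 window 1.03% ± 0.470 and 1.96% ± 2.18. In the Col27a1 window the 12 cytosines pooled to 0.047% over all mice. The CpGs in capitals were thus almost wholly unmethylated in both groups. Of the other windows with measured cytosines, that of Col4a4 pooled to 2.39% over 8 cytosines, with cocaine 1 at 9.98% and the other mice at 0.197% to 3.09%. A second start of Col18a1 had a single measured cytosine, at 18.0% pooled over all mice. The paired genes Col4a1 and Col4a2, and Col4a3 and Col4a4, which lie head to head, are not shown in letters because their windows run into the partner gene.

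Letters of 4 short motifs were counted in these windows on both strands. GGGCGG, the core of a GC box, was in 15 of the 27 collagen windows (55.6%) and in 32.7% of all windows. CCGG, which is the site of MspI, an enzyme widely used for such libraries, was in 44.4% and 47.1%. TATAAA was in 11.1% and 12.4%, and CCAAT in 29.6% and 33.8%. GGGCGG and CCGG can share bases with the CpGs counted above. These are descriptions of letters within the windows and not of bound factors.

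Gene ends were low in methylation in both groups. Of 844 cytosines within 1 kb of a collagen end, 91.7% were under 20% methylated, close to the 92.0% of all protein-coding genes. An end with at least 5 measured cytosines was available for 23 of the 30 genes. Col3a1, Col5a2, Col6a1, Col6a3, Col8a1, Col12a1 and Col24a1 had none. The 23 genes had 26 end windows, or 24 when a window shared by a head-to-head pair was counted once, and 15 of the 24 were under 5%.

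Among fibrillar collagens, Col1a2, which encodes a chain of type I collagen, had 1.47% at its 5' end over 10 cytosines. Col5a1, whose product sets the width of type I fibres, had 1.38% over 63 cytosines, and its mice read 0.0655%, 0.734%, 0.0521% and 0.493% with cocaine and 6.40%, 0.434%, 1.42% and 0.127% with saline. The highest of these was saline 1, and the groups overlapped. Col11a1, a cartilage fibril gene, was at 0.390%, Col11a2, its partner chain, at 4.17%, and Col27a1, which encodes a fibrillar collagen of cartilage, at 0.647%. Col1a1, whose start is not placed, was at 32% over 11 cytosines of its low-coordinate end, with cocaine mice at 25.8% to 40.6% and saline mice at 26.5% to 38.5%.

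Network-forming collagens showed shared ends. Col4a1 and Col4a2, the common chains of vessel basement membranes, are transcribed away from each other and shared 50 end cytosines at 0.351%. Cocaine mice read 0.072%, 0.247%, 0.124% and 0%, and saline mice 0.280%, 1.94%, 0.0844% and 0.133%. Saline 2 was the highest and the groups overlapped. Col4a3 and Col4a4, chains of the kidney filter's basement membrane, shared 38 cytosines at 3.24%. Col8a2, best known from the cornea, was higher at 9.61% over 42 cytosines of its 5' end, with 13%, 10.6%, 7.36% and 11.6% in cocaine and 8.34%, 9.16%, 8.93% and 9.81% in saline mice. Its cocaine values spanned the saline values on both sides. The 3' end of Col8a2 was at 70.4% over 6 cytosines.

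The beaded-filament gene Col6a2 was measured at its 3' end only, at 92.8%. Col9a1, a fibril-associated gene of cartilage, had the highest of the placed 5' ends, at 93.7% over 8 cytosines, with 90.0%, 96.8%, 95.8% and 92.3% in cocaine and 97.0%, 91.6%, 91.8% and 93.8% in saline mice. The mice of both groups were interleaved there. The promoter windows listed for Col9a1 hold 0 CpGs, so its 8 cytosines lie outside the bases just before a start. Its partner genes were lower, with Col9a2 at 5.93% and Col9a3 at 3.45%. Col16a1 was at 1.93%. Col19a1, which is made by subsets of neurons, had the lowest placed 5' end, at 0% in all 4 cocaine mice and 0%, 0%, 0.103% and 1.04% in saline mice over 10 cytosines.

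Of the transmembrane collagens, Col13a1, known from the neuromuscular junction, was at 0.465% over 55 cytosines and Col23a1 at 2.33% over 63. Col25a1, a neuronal collagen found in amyloid plaques, had the third highest placed 5' end, at 8.27%, with 7.83%, 6.98%, 6.27% and 12.2% in cocaine and 9.17%, 7.29%, 8.07% and 8.33% in saline mice. Cocaine 4 was the highest and the other 3 cocaine mice overlapped the saline mice. The 3' end window of Col23a1 was at 0.492%. It covers 1 kb on either side of that end, and the next gene, Phykpl, begins within it. The multiplexins were low at their 5' ends. Col15a1 was at 0.282% over 90 cytosines, with 0.182%, 0.388%, 0.167% and 0% in cocaine and 0.187%, 0.587%, 0.555% and 0.120% in saline mice, which overlapped. Col18a1, from which the vessel-inhibiting fragment endostatin is cut, was at 0.994% over 86. Col26a1, an EMI-domain collagen, was at 8.09% at its measured end.

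**Figure D1:**
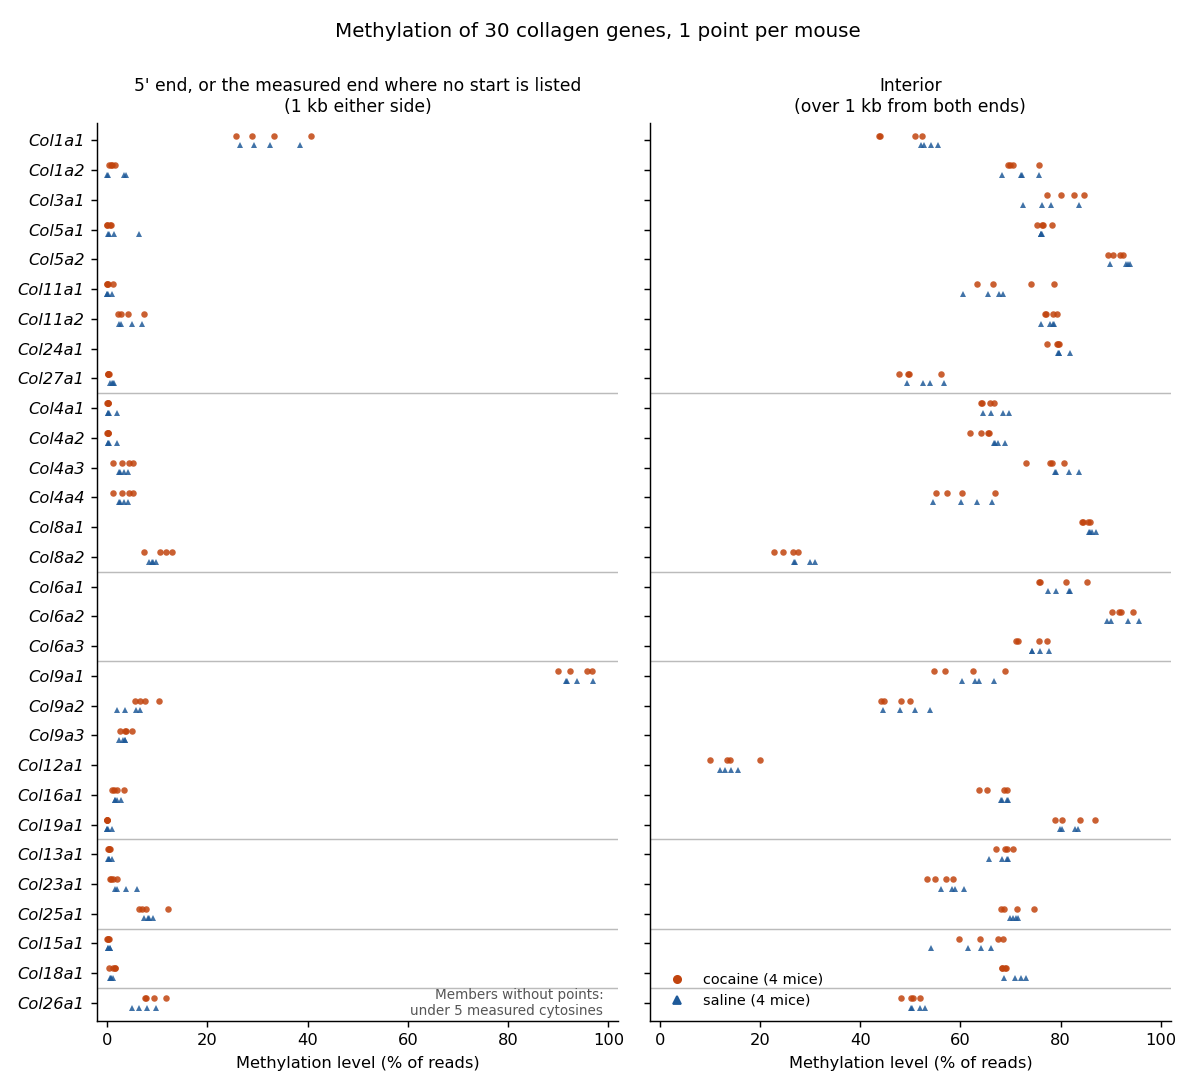
Methylation level (percent of reads, x axis) of each collagen gene in each mouse, at the 5' end, or the measured end where no start is placed (left) and in the interior (right); circles are the 4 cocaine mice, triangles the 4 saline mice, and grey lines part the structural classes. Most ends lie below 10% and most interiors above 60%, with Col9a1 and Col1a1 (ends) and Col12a1 and Col8a2 (interiors) standing away from the others in both groups.

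Cocaine and saline mice differed little at the ends. The mean over the 23 genes, each counted equally, was 13.5% ± 0.367 (SD, n = 4) in cocaine and 13.6% ± 0.349 in saline mice, a difference of -0.0537 percentage points, where all protein-coding genes differed by -0.414 points. Of the 9 collagen ends with a pooled level from 5% to 95% that were tested, 0 passed an adjusted p under 0.05 (quasi-binomial regression with limma's moderated dispersion), and 0% of all 7336 tested ends did. With limma on logit values 0 ends passed as well. At an unadjusted p under 0.05 stood 1 collagen end of 9 (11.1%), where 5.78% of all tested ends did and 0.668% did with the higher level in cocaine.

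That end was the 5' end of Col9a2, over 23 cytosines. It read 10.3%, 5.59%, 7.56% and 6.47% in cocaine mice and 2.01%, 3.6%, 5.66% and 6.48% in saline mice. Cocaine 1 was the highest, saline 1 the lowest, and the groups overlapped. The difference was 3.03 points (quasi-binomial p = 0.0400, adjusted p = 0.847). Without saline 1 it was 2.23 points (quasi-binomial p = 0.123), and p was also above 0.05 without cocaine 1 (0.201), cocaine 3 (0.0566) or saline 2 (0.0762). The median difference over the 9 tested collagen ends was 0.411 points, and over all tested ends -1.03 points.

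At ends of any level, including those too low to enter the test, 1 of 24 collagen windows (4.17%) did not overlap between the groups, where 3.08% of all 20903 windows did not. It was the placed 5' end of Col27a1, chosen here after its values were seen. This window surrounds the span edge and ends before the listed start of the gene at base 63215412. Its 15 cytosines read 0.233%, 0.211%, 0.328% and 0.150% in cocaine mice and 1.44%, 0.529%, 1.17% and 0.891% in saline mice. All 4 cocaine mice were below all 4 saline mice, with a difference in means of -0.779 points. For the run of 47 cytosines around the listed start, described below, the cocaine mean was not the lower (1.37% against 1.14%). When the filter on level was dropped, 3 of the 24 collagen windows (12.5%) had an unadjusted p under 0.05, where 6.32% of all windows did. Col27a1 was among them, with a quasi-binomial p = 0.00769 and an adjusted p = 0.742, and so was Col9a2. Without saline 1 the Col27a1 difference was -0.634 points (quasi-binomial p = 0.0173). Col23a1 had an unadjusted p of 0.0399 in that fit (1.13% ± 0.673 against 3.33% ± 1.99), with saline 1 the highest at 5.98%. Its difference of -2.20 points was -1.32 points without saline 1 (quasi-binomial p = 0.0782), and p was also above 0.05 without cocaine 1, cocaine 2, cocaine 3 or saline 2.

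Levels climbed with distance into the genes. Over the genes with a placed 5' end, the cytosines 1 kb or less before the end averaged 8.84% ± 0.240 in cocaine and 9.15% ± 0.425 in saline mice, and those in the first 1 kb inside 2.12% ± 0.255 and 2.47% ± 0.285. From 1 to 5 kb inside they averaged 38.0% ± 1.06 and 38.5% ± 1.42, from 5 to 20 kb 52.3% ± 1.92 and 53.1% ± 0.759, and from 20 to 50 kb 73.2% ± 0.559 and 74.3% ± 0.617. Beyond 50 kb the means were 70.3% ± 0.821 and 71.2% ± 0.408. The rise from end to interior was many times the spread between mice, whereas the groups lay less than 2 points apart at every distance.

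**Figure D2:**
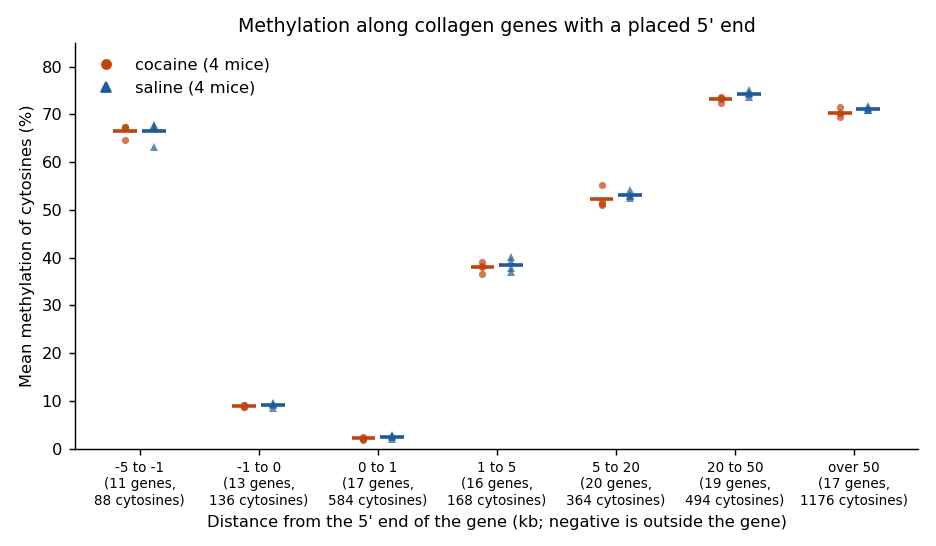
Mean methylation of collagen cytosines (percent, y axis) by distance from the placed 5' end in kb (x axis, with the number of genes and cytosines in each class); points are mice and bars group means. The first 1 kb inside the gene is the lowest, at 2.12% in cocaine and 2.47% in saline mice, and the groups lie close together at every distance.

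Interiors were mostly methylated. Of 2417 interior cytosines 49.5% were over 80% methylated and 17.2% under 20%, against 38.3% and 37.2% for all protein-coding genes. The interior was measured in 29 genes, all but Col9a3, which had 3 interior cytosines. It was over 60% in 22 genes, from 40% to 60% in 5 and below 40% in 2. The most methylated interiors were those of Col6a2 (91.8%), a microfibril gene, and Col5a2 (91.8%), a fibrillar gene. Col8a1 followed at 85.6%, while its partner chain Col8a2 was at 27.1%. The least methylated was that of Col12a1, a fibril-associated gene of tendon and skin, at 14.0%.

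These low interiors came from runs of CpGs that were low in both groups. In Col12a1, 82 cytosines between bases 79718322 and 79719730 of chromosome 9 (mm10), which are 76.6% of its measured interior cytosines, had a mean of 1.13% ± 0.792 with cocaine and 0.747% ± 0.392 with saline. The run begins 1.41 kb inside the high-coordinate end of the gene. Col8a2 had such a run of 50 cytosines between bases 126301045 and 126301803 of chromosome 4, at 2.39% ± 1.37 and 3.32% ± 1.62, and another of 23 cytosines at 2.07% ± 1.16 and 2.32% ± 0.535. In Col27a1, 47 cytosines between bases 63215335 and 63216429 of chromosome 4, around the RefSeq start whose window is printed above, averaged 1.37% ± 0.245 and 1.14% ± 0.484. Col1a1 had 12 cytosines at 1.52% ± 0.944 and 2.25% ± 2.06. In each of these 5 runs, chosen from a longer list, the group means differed by less than 1 point. A run was defined as at least 5 cytosines under 20%, so its low level follows from the definition. Some other runs differed by more, in both directions. In Col26a1 the run at base 136803046 had 11.96% ± 7.24 with cocaine and 6.89% ± 0.386 with saline. The run at base 136881893 had 3.08% ± 1.81 and 5.35% ± 2.27. The Col27a1 run holds the listed start of that gene and counts as interior only because the span edge lies before it. Exons and transcripts were not placed here, so whether other runs mark a start of transcription was not tested.

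In interiors the groups also overlapped for nearly all genes. The mean over the 29 genes was 66.2% ± 1.47 (SD, n = 4) in cocaine and 67.1% ± 0.740 in saline mice. Single mice read 65.1%, 66.5%, 65% and 68.1% with cocaine and 66.0%, 67.3%, 67.5% and 67.7% with saline. Cocaine 3 was the lowest and cocaine 4 the highest of the 8, as they were among the cocaine mice over all cytosines, and the part of this in the difference was not tested. The difference of -0.919 points stood beside -1.37 points over all protein-coding genes. Of the 29 genes 20 had the lower mean in cocaine mice (69.0%), where 71.2% of all tested interiors did, and 27 differed by at most 5 points.

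At an adjusted p under 0.05 there were 0 of 29 collagen interiors by the quasi-binomial test and 0 with limma on logit values, as for 0% of all 14641 tested interiors. At an unadjusted p under 0.05 there was 1 (3.45%), where 6.8% of all interiors were. This was Col1a1, which encodes the other chain of type I collagen, over 52 cytosines. Its interior read 44.0%, 50.9%, 43.8% and 52.2% in cocaine mice and 54.2%, 55.6%, 52.1% and 52.8% in saline mice. Cocaine 1 and cocaine 3 were the lowest, and cocaine 4 overlapped the saline mice by a narrow margin. The difference was -5.93 points (quasi-binomial p = 0.0415, adjusted p = 0.720). It was -5.77 points without saline 1 (quasi-binomial p = 0.0635), and p rose to 0.141 without cocaine 1, 0.110 without cocaine 3, 0.0936 without saline 2 and 0.0561 without saline 4. With each cytosine counted equally the difference was -2.06 points (limma, adjusted p = 0.798).

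Groups that did not overlap were found in 1 collagen interior (3.45%), against 4.38% of all tested interiors. That was Col4a2, at 64.3% ± 1.69 in cocaine and 67.5% ± 0.976 in saline mice (difference -3.22 points, adjusted p = 0.733). The largest higher mean in cocaine was in Col11a1, at 70.7% ± 6.99 against 65.5% ± 3.62 (difference 5.14 points, adjusted p = 0.738). It was 2.45 points without cocaine 4 and 7.58 points without cocaine 3 (quasi-binomial p = 0.389 and 0.0353).

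At finer scale, runs of shared cytosines with gaps of at most 100 bases and at least 3 CpGs gave 342 regions in or near collagen genes. The 288 with a pooled level from 5% to 95% were tested together with all 92484 such regions of the genome. Collagen regions had a median length of 113.5 bases and a median of 4 CpGs, with a median SD between mice of 5.21 points in cocaine and 4.56 in saline, against 4.86 and 4.45 over all regions. By the quasi-binomial test 0 collagen regions were called, which required an adjusted p under 0.05 and at least 10 points between the means. With limma on logit values 0 were called too, and 0% of all regions were. The smallest adjusted p was 0.876 among collagen regions and 0.249 among all.

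At an unadjusted p under 0.05 there were 16 of 288 collagen regions (5.56%), where 5.65% of all regions were. Of these, 11 were lower in cocaine (3.82%, against 4.57% of all regions) and 5 higher (1.74%, against 1.08%). With limma on logit values there were 19, 13 of them lower, where 5.01% of all regions were at that level. Without saline 1 there were 20 of 288, 13 of them lower. The share over all regions in that fit is not given here, so this count cannot be set against it. The groups did not overlap in 8 regions (2.78%, against 3.29% of all). The mean was lower in cocaine in 58.3% of collagen regions and in 61.8% of all, with a median difference of -0.842 and -1.06 points. With all mice in the quasi-binomial test, the collagen shares thus lay near those of all regions. The plot of differences shows both centred slightly below 0.

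**Figure D3:**
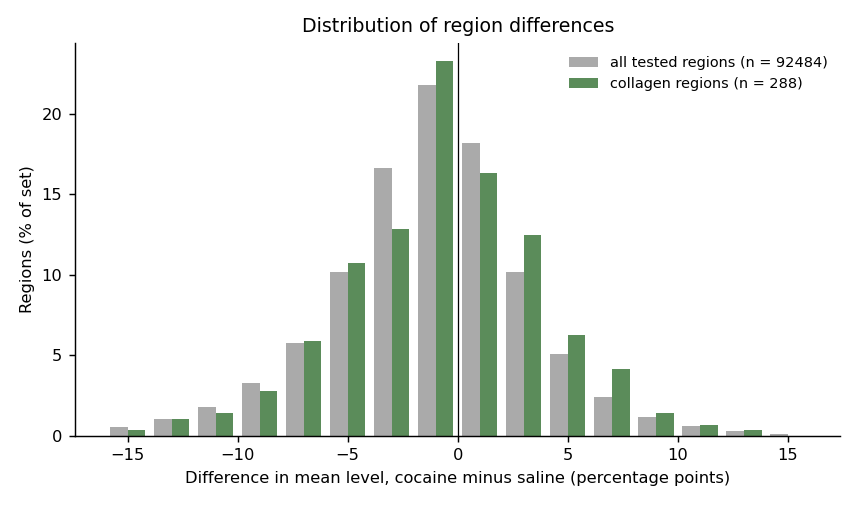
Share of regions (percent of each set, y axis) by difference in mean level, cocaine minus saline in percentage points (x axis), for the 288 collagen regions and all 92484 tested regions. Both distributions lie mostly within 5 points of 0 and have their median just below 0, at -0.842 and -1.06 points.

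The regions of smallest p are described in the next paragraphs as a record of the data, since none passed the adjusted threshold. When each of the 8 libraries was left out in turn, 3 of the 16 regions kept an unadjusted p under 0.05 every time. They were the first regions of Col27a1 and Col16a1 below and a Col25a1 region with the higher cocaine mean, at chr3:130324530-130324780. The region of smallest p lay inside Col27a1 at chr4:63315430-63315598, with 6 CpGs. It read 73.6%, 84.3%, 83.8% and 86.0% in cocaine mice and 94.8%, 93.1%, 89.1% and 92.6% in saline mice. All 4 cocaine mice were below all 4 saline mice, and 6 of 6 cytosines had the lower cocaine mean. The means were 81.9% ± 5.64 and 92.4% ± 2.39, a difference of -10.48 points (quasi-binomial p = 0.00398, adjusted p = 0.876). Without saline 1 it was -9.69 points (quasi-binomial p = 0.00884).

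A region of 3 CpGs inside Col16a1, at chr4:130068491-130068554, read 83.0%, 90.1%, 87.3% and 88.5% in cocaine mice. Saline mice read 99.6%, 93.3%, 95.2% and 95.5% there, all above the cocaine mice. The difference of -8.64 points (quasi-binomial p = 0.00505, adjusted p = 0.876) was -7.41 points without saline 1 (p = 0.0140). Col16a1 encodes a fibril-associated collagen, and its promoter window printed above was unmethylated in both groups.

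In the transmembrane gene Col13a1, a region at chr10:61906565-61906722 with 4 cytosines read 49.1%, 51.0%, 46.4% and 51.3% in cocaine mice. It read 61.6%, 56.0%, 57.2% and 63.4% in saline mice. The groups did not overlap, and 4 of 4 cytosines were lower in cocaine (difference -10.1 points, quasi-binomial p = 0.0213, adjusted p = 0.876, and -9.45 points without saline 1, p = 0.0411). A region of Col5a1 at chr2:28017325-28017462 also did not overlap, at 83.8% to 90.0% with cocaine and 91.1% to 95.1% with saline (difference -5.09 points, quasi-binomial p = 0.0515). The lncRNA gene Gm13372 lies within 1 kb of it.

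Other regions with a lower cocaine mean overlapped between the groups. In Col4a2, at chr8:11423559-11423823, cocaine mice read 69.6%, 66.9%, 59.3% and 47.6% and saline mice 69.7%, 67.2%, 77.5% and 75.7%. The cocaine mice ranged widely, with cocaine 4 the lowest, and only cocaine 1 and cocaine 2 came close to saline values (difference -11.7 points, quasi-binomial p = 0.0125, and -12.6 points without saline 1, p = 0.00949). Without cocaine 4 the difference was -7.24 points (quasi-binomial p = 0.0641), and without saline 3 -10 points (p = 0.0584). A second Col4a2 region, at chr8:11414446-11414515, was low in both groups, at 0% to 18.3% with cocaine and 14.5% to 23.3% with saline (quasi-binomial p = 0.0171). In Col25a1, chr3:130451124-130451271 read 80% to 91.3% with cocaine and 90.1% to 93.6% with saline (quasi-binomial p = 0.0172). Its values were high throughout, and cocaine 2 lay among the saline mice.

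Over all tested regions of the genome, 61.8% had a lower cocaine mean and 5.65% an unadjusted p under 0.05. Of the kidney-type chain gene Col4a3, all 4 tested regions had a lower cocaine mean, and 2 had an unadjusted p under 0.05. They read 70.3% ± 7.63 against 78.8% ± 2.45 at chr1:82605549-82605641 (quasi-binomial p = 0.0460, and p = 0.0703 without saline 1) and 38.6% ± 9.83 against 53.3% ± 7.93 at chr1:82651280-82651349 (p = 0.0490, and p = 0.0195 without saline 1). In the first, p was under 0.05 in 3 of 8 leave-outs, and in the second in 2 of 8. Cocaine and saline mice overlapped in both. In the Col12a1 flank, chr9:79722763-79722960 read 67.5% ± 8.08 and 75.2% ± 5.21 and did not reach that level (quasi-binomial p = 0.0632).

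Higher cocaine means were seen in other regions of the same genes. In Col25a1, chr3:130324530-130324780 read 90.1%, 94.4%, 91.5% and 93.8% in cocaine mice and 84.5%, 90.4%, 84.1% and 82.7% in saline mice. Saline 2 alone reached the cocaine values (difference 7.03 points, quasi-binomial p = 0.0115, adjusted p = 0.876, and 6.74 points without saline 1, p = 0.0204). Just before the Col25a1 gene, chr3:130179649-130179676 read 74.1% to 86.9% with cocaine and 65.4% to 73.0% with saline, without overlap (difference 7.82 points, quasi-binomial p = 0.0328, and 0.0877 without saline 1). Cocaine 4 was the highest, and without it the difference was 4.85 points (quasi-binomial p = 0.258). A further Col25a1 region, chr3:130428858-130428900, did not overlap either, at 87.9% to 90.1% against 76.5% to 87.6% (quasi-binomial p = 0.0747). Of the 17 tested regions of Col25a1, 7 were lower and 10 higher in cocaine mice.

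In Col6a2, chr10:76610641-76610659 read 94.9%, 94.9%, 95.5% and 95.2% in cocaine mice and 89.7%, 88.1%, 81.0% and 87.5% in saline mice. The cocaine mice were tightly grouped above all saline mice (difference 8.56 points, quasi-binomial p = 0.0300, adjusted p = 0.876). Its 3 cytosines had 13 to 33 reads per mouse. In Col11a1, chr3:114097041-114097107 read 94.1% to 96.6% against 90.5% to 93.3% (quasi-binomial p = 0.0688). The Col9a2 region of smallest p holds the same 23 cytosines as its 5' end above and is not a second result. In Col26a1, chr5:136803046-136803089 read 17.5%, 6.50%, 6.69% and 19.4% in cocaine and 3.83%, 7.64%, 6.54% and 8.88% in saline mice (quasi-binomial p = 0.0575). Without cocaine 4 its difference fell from 5.81 to 3.52 points (quasi-binomial p = 0.308). Cocaine 1 and cocaine 4 were high there and the other 2 cocaine mice were within the saline range.

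Without saline 1, the differences of the other regions described kept their sign. The lower ones were -11.5 points for the second Col4a2 region (quasi-binomial p = 0.0319), -6.53 for Col25a1 (0.0310), -5.77 for Col5a1 (0.0357) and -6.42 for the Col12a1 flank (0.116). The higher ones were 9.61 points for Col6a2 (quasi-binomial p = 0.0277), 4.84 for Col26a1 (0.0946), 4.31 for Col11a1 (0.0492) and 4.88 for the further Col25a1 region (0.156). For Col6a2 the difference was 6.68 points without saline 3 (quasi-binomial p = 0.111), and for the lower Col25a1 region -5.26 points without cocaine 4 (p = 0.131).

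**Figure D4:**
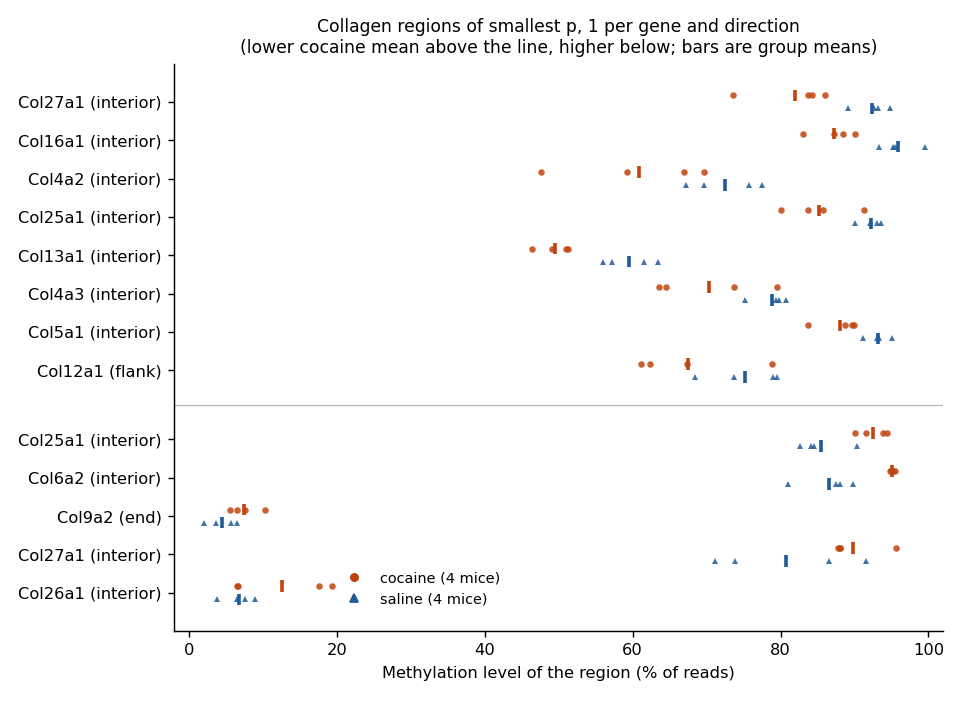
Methylation level (percent of reads, x axis) in each mouse for the collagen regions of smallest p, 1 per gene and direction; circles are cocaine and triangles saline mice, and bars are group means. The Col27a1 region at the top has all 4 cocaine mice (73.6% to 86.0%) below all 4 saline mice (89.1% to 94.8%), while most other rows overlap.

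Col27a1 was singled out after its values were seen. It held more regions at an unadjusted p under 0.05 than any other member, 5 of its 15 tested regions, where 5.65% of all tested regions were. Of the 5 in Col27a1, 4 were lower in cocaine mice and 1 higher. Beside the region above, chr4:63309404-63309611 read 78.4% to 86.1% with cocaine and 84.3% to 93.6% with saline (quasi-binomial p = 0.0318, and 0.0652 without saline 1). Nearer the start, chr4:63225479-63225785 read 37.3%, 50.2%, 40.8% and 48.9% in cocaine and 59.7%, 54.8%, 49.3% and 63.3% in saline mice (difference -12.5 points, quasi-binomial p = 0.0202, and -11.5 points without saline 1, p = 0.0388). Only saline 3 came down to the cocaine values.

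The last of the lower Col27a1 regions, chr4:63258251-63258257, rested on 3 cytosines and moved with single libraries. Saline 1 read 0% where the other saline mice read 63.4%, 63.2% and 39.3%. Cocaine mice read 30.2%, 53.3%, 25.8% and 24.5%. The difference was -8.01 points with all mice (quasi-binomial p = 0.0333, and p = 0.706 by limma on logit values) and -21.8 points without saline 1 (p = 0.00384). It was -0.699 points without saline 2 (quasi-binomial p = 0.121), -0.772 without saline 3 (0.154), -14.6 without cocaine 2 (0.0124) and -5.04 without cocaine 4 (0.108). Toward the 3' end, chr4:63333201-63333295, where the lncRNA gene Gm52743 lies within 1 kb, read 88.0%, 87.8%, 88.0% and 95.6% in cocaine and 86.5%, 91.6%, 71.1% and 73.9% in saline mice. Its higher cocaine mean (difference 9.05 points, quasi-binomial p = 0.0459, and 11 points without saline 1, p = 0.0281) ran opposite to the other 4. Without saline 3 the difference was 5.82 points (quasi-binomial p = 0.441), and p was under 0.05 in 2 of 8 leave-outs. Over all 15 regions of Col27a1 9 were lower and the median difference was -1.73 points. Of all tested regions 61.8% were lower, with a median difference of -1.06 points.

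**Figure D5:**
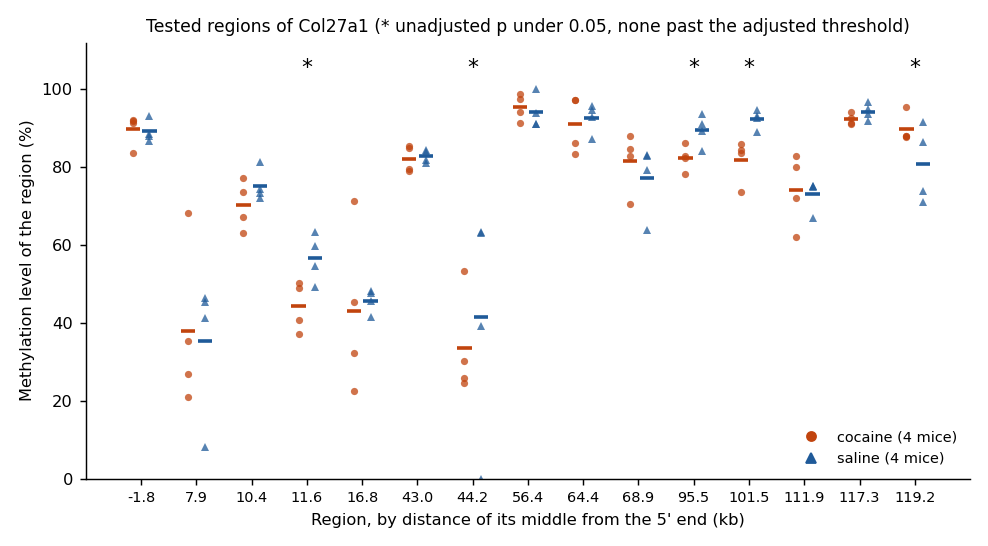
Methylation level (percent of reads, y axis) of the 15 tested regions of Col27a1 in each mouse, ordered by distance from the 5' end in kb (x axis, not to scale); bars are group means and stars mark an unadjusted p under 0.05. The starred regions are 4 with a lower and 1 with a higher cocaine mean, and saline 1 is at 0% in the region 44.2 kb from the 5' end.

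By structural class, the tested regions of network-forming collagens had the lowest median difference, -1.80 points over 57 regions, 38 of them lower in cocaine mice. Fibrillar genes had -0.707 points over 67 regions, fibril-associated genes -0.952 over 42, multiplexins -1.32 over 24 and beaded-filament genes -0.862 over 19. Transmembrane genes had -0.204 points over 59 regions, and Col26a1 had 1.32 over 20. Regions at an unadjusted p under 0.05 were found in 5 classes, with 5 in fibrillar (7.46%), 4 in network-forming (7.02%), 4 in transmembrane (6.78%), 2 in fibril-associated (4.76%) and 1 in beaded-filament genes (5.26%), where 5.65% of all regions were.

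Flanks, from 1 to 5 kb outside the genes, were measured for 15 genes and averaged 62.4% ± 1.54 in cocaine and 64.3% ± 0.738 in saline mice. That difference of -1.87 points stood beside -1.10 points over all protein-coding genes, and with each flank cytosine counted equally it was 0.0112 points. Of the 13 tested flanks, 0 had an unadjusted p under 0.05, where 6.58% of all tested flanks did, and 1 did with limma on logit values. An adjusted p under 0.05 was reached by 0 collagen flanks in either test and by 0% of all flanks in the first. The largest lower mean was that of Col16a1, at 63.5% ± 10.48 in cocaine and 75.2% ± 5.82 in saline mice over 5 cytosines (difference -11.7 points, adjusted p = 0.758). It was -7.22 points without cocaine 2, the lowest mouse (quasi-binomial p = 0.244), and -15.2 points without cocaine 4 (p = 0.0225). Col12a1 (67.5% ± 8.08 against 75.2% ± 5.21, adjusted p = 0.752) and Col1a2 (41.6% ± 5.05 against 48.8% ± 7.13, adjusted p = 0.752) came next. The Col12a1 flank holds the same 5 cytosines as its region above and is not a second result. For Col1a2 the difference was -7.14 points with saline 1 and -10.2 points without it (quasi-binomial p = 0.0123), and -4.54 points without saline 4 (p = 0.211). The flanks of Col4a3 and Col23a1 were unmethylated, at 0.153% and 0.0786%.

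Genes that make, process and bind collagen were described from a list of 55 entries, of which 53 matched the gene table. Of their ends 11 were tested, and 0 had an unadjusted p under 0.05. Of 49 tested interiors 3 were lower and 1 higher at that level (8.16% in all, against 6.8% of all tested interiors). Of 24 tested flanks 3 were lower and 0 higher (12.5%, against 6.58% of all tested flanks). None passed the adjusted threshold in the quasi-binomial test. With each library left out in turn, 2 of these 7, the Bmp1 interior and the Serpinh1 flank, kept an unadjusted p under 0.05 every time. Bmp1, the protease that trims procollagen, had an interior at 48.8%, 48.3%, 46.0% and 50.1% in cocaine and 49.1%, 61.7%, 58.2% and 60.8% in saline mice (difference -9.16 points, quasi-binomial p = 0.00537, adjusted p = 0.653). Saline 1 lay with the cocaine mice there. Pcolce2, which enhances that cleavage, read 81.8% ± 3.79 against 88.3% ± 2.83, and P3h4, which takes part in collagen hydroxylation, 83.9% ± 2.78 against 89.3% ± 1.53.

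The interior of Itga2, which encodes a collagen-binding integrin chain, was higher, at 69.4% ± 2.89 in cocaine and 64.6% ± 3.41 in saline mice (quasi-binomial p = 0.0346, adjusted p = 0.720). In flanks, Serpinh1, the collagen chaperone, read 14.7%, 12.3%, 15.2% and 15.3% in cocaine and 16.7%, 24.0%, 21.8% and 20.3% in saline mice (difference -6.30 points, quasi-binomial p = 0.00952, adjusted p = 0.713). Its groups did not overlap. Plod2, a lysyl hydroxylase, read 59.7% ± 7.06 against 72.8% ± 9.03, and Col6a6, a collagen outside the 30, 67.9% ± 6.50 against 75.7% ± 4.57. In Plod2 saline 1 was at 86.3% and the other saline mice at 67.9% to 68.9%, and without saline 1 the difference went from -13.1 to -8.58 points, with p just above 0.05.

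Methylation at marker genes of cell types in the layer was read beside these results. Interiors of granule cell markers averaged 35.1% ± 3.77 in cocaine and 35.7% ± 1.18 in saline mice, of interneuron markers 48.7% ± 3.34 and 51.4% ± 1.56, and of astrocyte markers 38.5% ± 0.738 and 41.0% ± 1.55. Those of oligodendrocyte markers averaged 64.9% ± 2.35 and 67.0% ± 3.99, and of microglia markers 87.3% ± 1.42 and 89.1% ± 1.42. For fibroblast and meninges markers, the cells that make most fibrillar collagen, 3 measured interiors averaged 34.0% ± 2.12 and 33.3% ± 1.40. Ends of 4 endothelial and mural markers were at 20.01% to 26.8% with cocaine and 26.1% to 28.2% with saline, with means of 22.6% ± 3.21 and 26.9% ± 0.890 (difference -4.34 points, against -0.414 over the ends of all protein-coding genes). Their interiors averaged 62.8% ± 3.58 and 65.6% ± 0.901 (difference -2.81 points, against -1.37 over all interiors). Ends of the other marker lists differed by -0.795 points for granule cells, -0.150 for astrocytes, -0.0704 for oligodendrocytes and -0.831 for interneurons. They differed by -1.70 points for fibroblasts and meninges and by 1.59 for microglia, with 1 gene measured. The ends of endothelial and mural markers thus had the largest difference of the lists. The part of cell makeup in the collagen values was not tested.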

How the data were processed

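Reduced representation bisulfite sequencing gave CpG methylation in 8 libraries, 1 per mouse, from 4 cocaine and 4 saline mice grouped by their titles. Reads were processed with bcl2fastq and Bismark version 22.1, per the submitters' processing notes. Trimming and removal of duplicate reads are not stated. Per the file headers the deposited level is a percentage, but its values are a fraction from 0 to 1 computed by the authors, here multiplied by 100. The deposited coverage is the authors' count of reads per cytosine and strand, with a minimum of 10. Methylated and unmethylated reads were recovered from the product of both.

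Cytosines covered in all 8 libraries were kept, 48.7% of the 3101292 listed in any. Listed reads per library came to between 87101844 and 140886283, and the tested collagen regions had a median of 48.4 reads per cytosine and mouse. Reads carry no molecular identifiers in the labels, so they may not be independent molecules. Gene spans came from a RefSeq table of GRCm38.p6, with the coordinates of mm10, and strand from RefSeq promoter starts.

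Pooled reads of each feature with at least 5 cytosines (ends, interiors, flanks) or 3 CpGs (regions) were fitted on the whole genome by quasi-binomial logistic regression on group. Dispersions were moderated with limma 3.58.1 (squeezeVar, trend on coverage, floor of 1) in R 4.3.3. F-test p-values were adjusted by Benjamini-Hochberg over all features. Features had a pooled level from 5% to 95%. A call required an adjusted p under 0.05 and 10 points (regions) or 5 points (others). The fits were also run on simulated reads, with 1 setting of the spread between mice for all regions and changes only at intermediate levels. Tested collagen regions had a median level of 81.3%, and saline 1 stood apart, so that run cannot speak for the 0 calls. The labels give 1 mouse per library, so replicates are animals.

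Members, gene lists, tests and rules were chosen with earlier results of these data known. Values by mouse are given for ends, interiors and flanks at an unadjusted p under 0.05, for up to 8 regions with the lower and 5 with the higher cocaine mean by smallest p, 1 per gene, and for the 3 highest and 3 lowest placed 5' ends. The other regions at an unadjusted p under 0.05 or without overlap were added. Alternatives were limma on logit values (0.5 reads added) or on per-cytosine means, no filter on level, a minimum of 20 reads, merged strands, windows of 500 bases, gaps of 50 bases, a replicate block and each library left out. Libraries of 1 group differed by a mean chi-square per region of 4.74 to 10.4, so none repeated another. Python 3.11.15 with numpy 2.4.6 and pandas 2.3.3 was used.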

Additional observations from a re-analysis of the deposited data

Results flagged for a closer look

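Of 184 groups of 4 mice examined, 13 (7.07%) held a mouse far from the other 3. For independent and normally distributed values chance gives about 1 in 20. Several of the 13 lie near 0%, where that rate need not hold. In regions, cocaine 4 read 95.6% in the Col27a1 region at base 63333201, where the other cocaine mice read 87.8% to 88.0%, and saline 2 read 14.5% in the Col4a2 region at base 11414446, where the others read 21.9% to 23.3%. At 5' ends all such values were low. Cocaine 4 read 1.26% and saline 3 0.943% at Col11a1, saline 2 read 1.94% at the cytosines shared by Col4a1 and Col4a2, which counts for both genes, and saline 4 read 1.04% at Col19a1. In interiors, cocaine 2 read 75.6% in Col1a2, and in Col24a1, a fibrillar gene, cocaine 1 read 77.3% and saline 3 81.9%. In flanks, cocaine 2 read 61.2% at Col6a1, and at Col23a1 cocaine 3 read 0.445% and saline 4 0.153% where the other mice of their group read 0%.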

How the results depend on the processing

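No collagen end, interior, flank or region was called under any setting tried. The direction held in 285 of 285 alternatives of the 21 named regions, ends and interiors, and none reached an adjusted p under 0.05 (smallest 0.306, the Col1a1 interior without cocaine 4). In leave-outs chosen after seeing the data, for 12 further results (3 ends of any level, 2 regions without overlap and 7 interiors and flanks of collagen-processing genes), the direction held in 96 of 96 and the smallest adjusted p was 0.273. These results were chosen by small p or lack of overlap in the same mice, and the alternatives reuse the same reads. A kept direction is therefore no separate support. The Col9a2 region and end hold the same cytosines, are both among the 21, and return among the 12. Counts at an unadjusted p under 0.05 moved as follows. Regions went from 16 of 288 to 25 of 342 with no filter on level, and to 10 of 237 with gaps of at most 50 bases. The shares over all regions in these fits were 5.65%, 6.43% and 5.57%, and the sets of regions tested differed. Region counts lay between 11 and 20 when each library was left out. Ends went from 1 to 0 with limma on logit values, 3 with no filter and 0 with windows of 500 bases, and lay between 0 and 1 with each library left out (0 without saline 1 or saline 2). Interiors went from 1 to 0 with limma on logit values and 0 with limma on per-cytosine means. They lay between 0 and 3 with each library left out, with 0 without cocaine 1, saline 1, saline 2 or saline 4, 2 without cocaine 2 and 3 without cocaine 4. Flanks went from 0 to 1 with limma on logit values and 1 with strands merged, and lay between 0 and 2 with each library left out (1 without cocaine 1, cocaine 2, saline 1 or saline 3, and 2 without cocaine 4 or saline 2). With the replicate number as a block, flanks went to 3 and regions to 12 of 288, where 5.95% of all regions were at that level. For ends with no filter the share over all windows is given above. For the other counts of ends, interiors and flanks, and for regions with a library left out, such shares are not given here. Those counts alone do not show whether collagen genes differed from other genes. Deviations of cocaine and saline mice with the same number had correlations of -0.0169, -0.0105, 0.00667 and 0.0772. Those with different numbers had correlations from -0.139 to 0.0644, so the highest of all was for number 4. The labels used here do not say whether the numbers pair the mice, and these correlations cannot tell. The cause of the shifts in counts was not tested. The mean difference over members lay between -0.216 and 0.0595 points at ends and between -1.56 and -0.515 points in interiors with each library left out.

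Coverage of single cytosines, 4 mice per group and the spread of saline 1 limit these values. Genes with few measured cytosines, such as Col3a1 and Col5a2, are described by a small part of their length, and 7 genes have no measured end. Cytosines outside the restriction fragments were not analysed here.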
